A study of Mus musculus with 36 samples.

Results

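Mouse embryonic fibroblasts (MEF) of the MSR-dCas9-Control line were compared at 24 h and at 3 h after the end of induction, in 3 libraries each, to show how far the cells changed over that time without an activator. The 6 libraries are those the labels give as post-induction 3 h and 24 h of that line, out of 36 in all, and every gene and repeat family was considered: 21862 of 54842 genes and 1455 of 1561 repeat families had enough counts to be tested. The cells carry a guide against the major satellite repeat (MSR), the tandem DNA of mouse pericentric heterochromatin, and a doxycycline-inducible dCas9, a Cas9 that binds but does not cut, with no effector domain. All 6 cultures had received 10 ng/ml doxycycline for 24 h, were then washed and given fresh medium without the drug, and were harvested 3 h or 24 h later. The lines are mixed hygromycin-resistant cultures made by PiggyBac transposition, not single clones, and the medium contained 10% serum throughout. Time since doxycycline removal and time since the medium change are the same in this design and cannot be told apart. A second line, MSR-dCas9-Activator, whose dCas9 carries the VPR activator domain and which was induced for 6 h at the same dose, was sampled at the same times and is used below only for comparison.

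Fibroblasts answer growth factors in fresh serum with waves of transcription. Immediate early genes (Fos, Egr and Jun family members) come first, then feedback inhibitors of the ERK pathway such as the DUSP phosphatases and Sprouty proteins, and targets of SRF and YAP/TEAD, which sense actin and cell shape. As growth factors and nutrients are used up and cells crowd, FOXO factors, the ATF4-driven integrated stress response and growth-arrest genes are known to become active.

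In the 6 libraries genes held between 27482733 and 46800231 counts and repeat families between 8100293 and 13926958. On the first principal component of the 18 Control-line libraries, which took 22.5% of the variance, the libraries of replicate 3 lay apart from those of replicates 1 and 2 at every time point, so the replicate number was kept in the model. Fibroblast markers summed to between 17000 and 21200 CPM (counts scaled to the library's gene total) at 3 h and between 18200 and 21800 at 24 h, with 2 of 14 markers under 10 counts in every library. Markers of epithelium (10 genes, at most 1.93 CPM in sum) and endothelium (10 genes, 1.13 to 1.58 at 3 h and 2.26 to 2.47 at 24 h) were near 0. Those of blood (12 genes) summed to between 13.6 and 15.8 CPM at 3 h and between 13.9 and 15 at 24 h, most of it from Csf1r, with mean normalised counts of 400.4 and 309.7 (log2 fold change -0.36, edgeR adjusted p = 0.00396), and Cd68, with 157 and 186, while Epcam, Krt5, Erg, Emcn, Cd3e, Tyrobp and Adgre1 had no count in any library. Neural markers summed to between 20.9 and 28.4 CPM at 3 h and between 24.2 and 26.7 at 24 h, adipocyte markers to between 172 and 206 and between 204 and 272, and muscle markers to between 29 and 30.8 and between 19.2 and 21.1.

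Between 3 h and 24 h the Control line changed in a small set of genes by more than 2-fold and in a large set by less. Genes known from the growth factor response, such as Ccn2, Has2 and Dusp6, were lower at 24 h, and genes led by Notch3, Zfr2, Dhrs3 and Trp53inp1 were higher. A gene was called when its adjusted p was under 0.05, its change was over 2-fold and its mean normalised read count over the 6 libraries was over 100. By this rule 50 genes were higher at 24 h (0.229% of those tested) and 58 were lower (0.265%), and in all 108 the 3 replicate pairs moved the same way. The libraries of the 2 time points did not overlap for 49 of the 50 and 56 of the 58, against 17.9% and 17.5% of all genes tested. Agreement of the pairs and lack of overlap follow largely from the call, which was made on these same libraries, and are no support for it. Of the 108 genes 97 changed by less than 3-fold and 2 by more than 4-fold. Without a TMM factor, a scaling that moved the median of all genes from 0.022 to 0.15 on the log2 scale, 77 genes were called higher and 33 lower.

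By the adjusted p alone, 2840 genes were higher (13.0%) and 3370 lower (15.4%), and 4737 of the 5252 with a mean over 100 changed by less than 1.5-fold. The direction of these small changes followed the level of the gene. Of 645 protein-coding genes with a mean over 10000, 379 were lower (58.8%) and 18 higher (2.79%), with a median log2 fold change of -0.17. In the band from 1000 to 10000, 2126 of 6048 were lower (35.2%) and 682 higher (11.3%), and from 100 to 1000, 446 of 4178 were lower (10.7%) and 1048 higher (25.1%). Among the 2109 genes from 10 to 100, 39 were lower (1.85%) and 360 higher (17.1%), with a median of 0.30. Counts of list members below are to be read against these shares as well as against those of all genes. In bulk RNA a lower level in each cell and fewer cells with the transcript cannot be told apart.

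**Figure D1:**
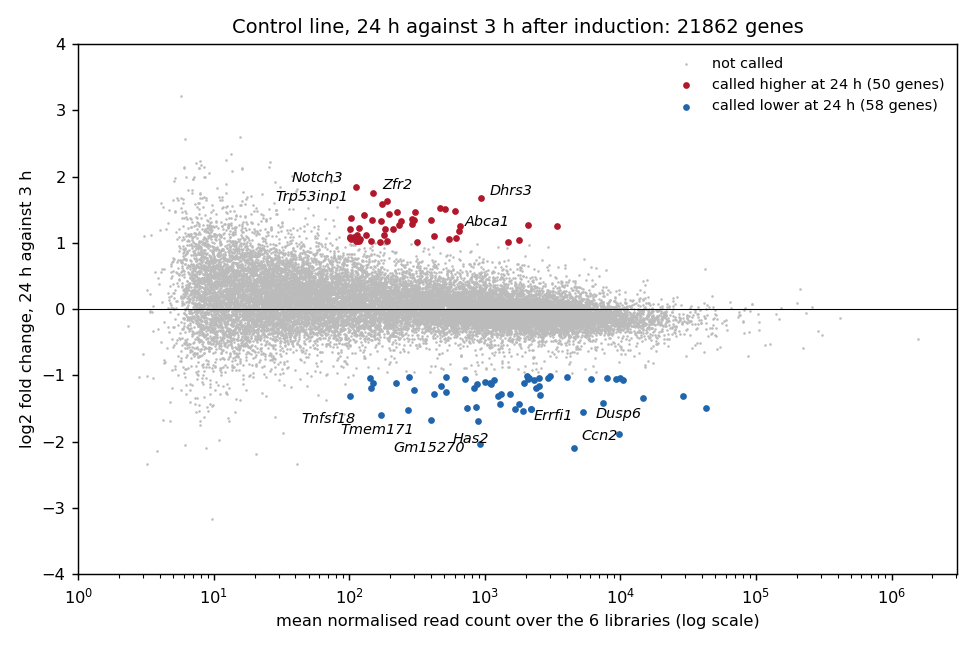
Log2 fold change of each gene tested between 24 h and 3 h in the Control line (vertical axis) against its mean normalised read count over the 6 libraries (horizontal axis, log scale), with the 50 genes called higher in red, the 58 called lower in blue and all others in grey. The cloud of grey points slopes down from left to right, and the called genes lie beyond 1 and -1, with Ccn2 and Gm15270 the only ones below -2.

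Ccn2 (connective tissue growth factor, a matrix-associated protein and a classic YAP/TEAD target; GRCm38 chr10:24595442-24598683, plus strand) had the largest fall. Its normalised read counts were 5149, 5746 and 11062 in replicates 1 to 3 at 3 h and 1192, 1356 and 2623 at 24 h. Replicate 3 was the highest at both times and every 24 h library lay below every 3 h library, with a log2 fold change of -2.09 (SE 0.203, edgeR adjusted p = 2.25e-05). The processed transcript Gm15270 (chr10:24549441-24597108, minus strand) overlaps Ccn2 on the other strand and gave -2.04; the strand setting of the counting is not given in the sources used here, so its reads cannot be told apart from those of Ccn2.

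Has2, the synthase of hyaluronan (chr15:56665627-56694539, minus strand), had 1063, 1127 and 1871 at 3 h and 341, 353 and 557 at 24 h, a change of -1.69 (SE 0.12, edgeR adjusted p = 3.12e-08). Replicate 3 was the highest library at either time, and no 24 h library reached the lowest 3 h library.

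Dusp6, a phosphatase that switches off ERK (chr10:99263231-99267489, plus strand), had counts of 7271, 7198 and 9037 at 3 h and 2367, 2492 and 3146 at 24 h. Its change was -1.56 (SE 0.0884, edgeR adjusted p = 1.86e-09), and the 3 libraries of a time point lay close together. Errfi1, a cytoplasmic inhibitor of the EGF receptor (chr4:150853919-150868892, plus strand), went from 2535, 2381 and 3631 to 884, 966 and 1062, with -1.54 (SE 0.095, edgeR adjusted p = 2.09e-09). Tnfsf18, the ligand of the receptor GITR, had 266, 263 and 241 in the 3 h libraries against 84.8, 85.1 and 83.5 in those at 24 h, with the smallest relative spread among the falls described so far. Tmem171, a transmembrane protein, changed with -1.68 (SE 0.112, edgeR adjusted p = 1.35e-10).

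Other called falls were the AP-1 subunit Fosl1 (-1.51), the matrix protein Thbs1 (-1.5; 62901 ± 8491 normalised counts at 3 h and 22327 ± 3984 at 24 h, SD, n = 3), the ERK phosphatases Dusp5 and Dusp4 (-1.43 and -1.04), the ERK inhibitors Spry4 and Spry2 (-1.29 and -1.28) and the growth factors Hbegf, Lif, Fgf7 and Fgf2 (-1.28, -1.13, -1.12 and -1.02). Hbegf, Fgf7, Fgf2 and the chromatin protein Hmga2 (-1.31) are named here after their values were seen. Of the 58, 48 are annotated as protein-coding. Some of the rest overlap a called gene: Gm29233 overlaps Thbs1, Gm28592 overlaps Phlda1, Has2os overlaps Has2, and Mir763, 1700006J14Rik and 9230105E05Rik overlap Hmga2, so their reads cannot be assigned to 1 gene; Fgf7 and Fgf2 also overlap other genes.

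Among the rises, Notch3, a receptor of the Notch pathway (chr17:32120820-32166852, minus strand), came first, at a low level. Its counts were 53.3, 61.2 and 32.2 at 3 h and 162, 244 and 123 at 24 h, a log2 fold change of 1.84 (SE 0.168, edgeR adjusted p = 2.22e-08). Zfr2, a paralogue of the RNA-binding protein Zfr, had 66.4, 90.6 and 49.3 and 219.6, 295 and 179.9, with 1.76 (SE 0.193, edgeR adjusted p = 5.93e-07). In both, replicate 2 was the highest and replicate 3 the lowest library at each time, and the times did not overlap.

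Dhrs3, which reduces retinaldehyde to retinol and is itself induced by retinoic acid (chr4:144892827-144928209, plus strand), had 538, 589.5 and 224 at 3 h and 1616, 1849.6 and 797 at 24 h. Replicate 3 was well below replicates 1 and 2 at both times, yet its own pair rose as the others did, and the change was 1.67 (SE 0.0822, edgeR adjusted p = 1.27e-12). Trp53inp1, a p53-inducible protein of autophagy (chr4:11156431-11174379, plus strand), had 87.4, 119 and 69.4 against 249, 403 and 209, with 1.64 (SE 0.191, edgeR adjusted p = 2.22e-06).

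The other 4 of the 8 largest rises were Scara5, a scavenger receptor that takes up ferritin (1.59), Gramd1b, a carrier of cholesterol between plasma membrane and endoplasmic reticulum (1.53), the Groucho-type corepressor Tle2 (1.51) and Abca1, the cholesterol efflux pump. Abca1 spread most between replicates, with 359, 519 and 135 at 3 h and 860.4, 1109 and 649 at 24 h. Its change was 1.48 (SE 0.319, edgeR adjusted p = 0.00546), and its edgeR adjusted p was 0.057 with the 6 libraries alone, 0.41 with all 36, 0.129 without the replicate block and 0.0949 without replicate 3. Of the 50 rising genes 47 are annotated as protein-coding. The group also held Bmf, a pro-apoptotic BH3-only protein (1.47), Ypel2 (1.44), Ypel3 (1.12), Flt3l, the ligand of FLT3 (1.11), the iron exporter Slc40a1 (1.07) and the ATP-binding cassette transporters Abca8b (1.33) and Abca9 (1.12), named here after their values were seen.

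Promoter windows of RefSeq (GRCm38.p6, 250 bases before and 50 after a start site) were found for 33 of the 58 falling and 33 of the 50 rising genes, 43 windows in each set, and searched on both strands for letters that transcription factors of the pathways above are known to bind. The CArG box of SRF was in 1 of 43 windows of falling genes and 0 of 43 of rising genes, and in 1.63% of all 32851 windows. TGANTCA (AP-1) was in 5 of 43 and 0 of 43 (7.81% of all), GGAATG (TEAD) in 9 of 43 and 8 of 43 (14.7%), TGACGTCA (CRE) in 2 of 43 and 1 of 43 (1.79%), GTAAACA (FOXO) in 3 of 43 and 3 of 43 (3.65%) and CACGTG (E-box) in 3 of 43 and 7 of 43 (7.15%). These are matches of letters in a short window and no sites of binding, and several genes have more than 1 window.

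The windows of 4 genes are shown because each joins a gene described here to 1 of these motifs, given 5′ to 3′ on the gene's strand from 250 bases before the RefSeq start to 10 bases after it (GRCm38.p6), with the motif in capitals. They are Dusp5 (chr19:53528895-53529154, plus strand, 2 adjoining CArG boxes), Ccn1 (chr3:145649976-145650235, minus strand, TEAD letters as the reverse complement CATTCC), Tnfaip3 (chr10:19015401-19015660, minus strand, AP-1) and Dhrs3 (chr4:144892887-144893146, plus strand, FOXO letters across the start), the first 3 from falling genes and the last from a rising gene. The Tnfaip3 window also holds the E-box letters at -33 from the start, left in small letters.
Dusp5: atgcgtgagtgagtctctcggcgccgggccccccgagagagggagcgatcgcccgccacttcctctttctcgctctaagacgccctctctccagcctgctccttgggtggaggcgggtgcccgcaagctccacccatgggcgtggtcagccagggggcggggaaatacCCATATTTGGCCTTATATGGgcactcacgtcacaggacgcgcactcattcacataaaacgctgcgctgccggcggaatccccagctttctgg
Ccn1: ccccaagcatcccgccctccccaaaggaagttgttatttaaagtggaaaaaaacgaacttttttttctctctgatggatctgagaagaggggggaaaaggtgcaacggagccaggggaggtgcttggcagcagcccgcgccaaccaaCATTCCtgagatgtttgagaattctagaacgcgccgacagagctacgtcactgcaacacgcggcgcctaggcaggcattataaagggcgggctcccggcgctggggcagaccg
Tnfaip3: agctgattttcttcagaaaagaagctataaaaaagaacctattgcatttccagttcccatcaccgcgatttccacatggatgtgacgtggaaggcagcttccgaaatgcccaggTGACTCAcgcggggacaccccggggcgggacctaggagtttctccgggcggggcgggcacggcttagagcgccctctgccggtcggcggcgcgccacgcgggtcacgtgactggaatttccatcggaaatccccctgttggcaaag
Dhrs3: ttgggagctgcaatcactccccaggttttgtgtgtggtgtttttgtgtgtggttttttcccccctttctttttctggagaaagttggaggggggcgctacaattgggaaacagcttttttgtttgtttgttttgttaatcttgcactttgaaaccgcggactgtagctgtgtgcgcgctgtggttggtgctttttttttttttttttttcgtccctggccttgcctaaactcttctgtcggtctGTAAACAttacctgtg

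The Control line was also sampled uninduced, at the end of induction and at 6 h and 12 h after it, which places the 2 time points in a series. Ccn2 averaged 4499 in uninduced cells and 3063 in induced cells, then 7319, 3226, 4137 and 1723 at 3, 6, 12 and 24 h. Has2 averaged 1041 in uninduced cells and 671 in induced cells, then 1354, 982, 845 and 417 at 3, 6, 12 and 24 h, and Dusp6 4618 in uninduced cells and 3285 in induced cells, then 7835, 4093, 3960.5 and 2668 at 3, 6, 12 and 24 h. In all 3 the 3 h group had the highest mean of the 6 and the 24 h group the lowest. Over the 58 falling genes the median difference from the 3 h group was -0.79 in uninduced cells and -0.90 at the end of induction, then -0.67, -0.75 and -1.19 at 6, 12 and 24 h on the log2 scale. These values share the 3 h libraries, through which the genes were chosen.

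Rising genes had another course. Dhrs3 averaged 589 in uninduced cells and 567 in induced cells, then 451, 488, 370.3 and 1421 at 3, 6, 12 and 24 h, and Notch3 88.7 in uninduced cells and 77 in induced cells, then 48.9, 61.6, 37.5 and 177 at 3, 6, 12 and 24 h, and both genes had their lowest mean at 12 h. Ccng2 (an atypical cyclin of quiescent cells) averaged 296 in uninduced cells and 244 in induced cells, then 168, 292, 244 and 416 at 3, 6, 12 and 24 h. Over the 50 rising genes the median difference from the 3 h group was 0.80 in uninduced cells and 0.53 at the end of induction, then 0.49, 0.16 and 1.21 at 6, 12 and 24 h. Step by step, the same rule called 1 gene higher and 8 lower from 3 h to 6 h (0.00457% and 0.0366%), 1 and 24 from 6 h to 12 h (0.00457% and 0.110%), and 75 and 12 from 12 h to 24 h (0.343% and 0.0549%). Against uninduced cells 8 genes were called higher at 24 h and 37 lower (0.0366% and 0.169%), and 21 higher and 42 lower at 3 h (0.0961% and 0.192%).

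**Figure D2:**
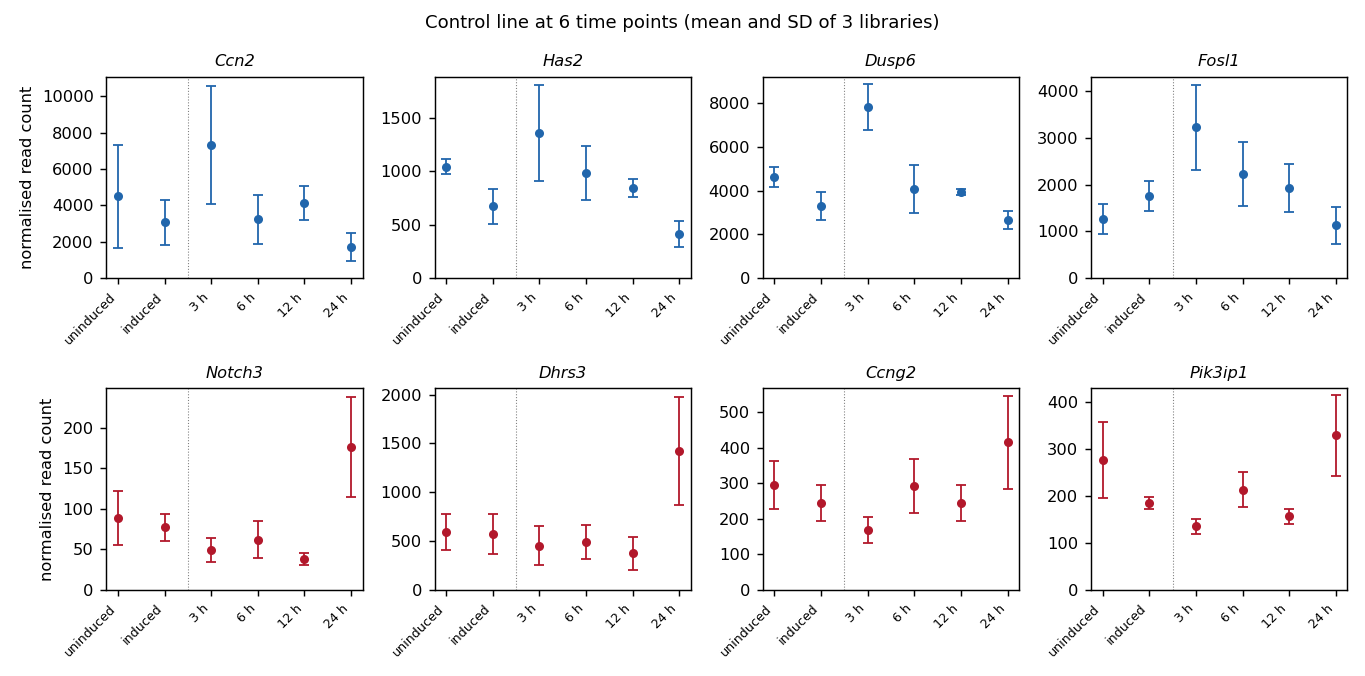
Normalised read counts (vertical axes, from 0) of 4 falling genes in blue (upper row) and 4 rising genes in red (lower row) at the 6 time points of the Control line, as the mean of 3 libraries with bars of 1 SD, the dotted line marking the wash and medium change. The means of the 4 falling genes are highest at 3 h and lowest at 24 h, with Fosl1 at 1133 at 24 h close to its 1264 in uninduced cells, and those of the 4 rising genes are highest at 24 h.

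Genes were grouped into lists by pathway, chosen with earlier results of these data known, and a member is said to rise or fall when its adjusted p over all genes was under 0.05. Members named below that were not called were in part chosen after their values were seen. Of 36 serum immediate early and delayed early genes measured, 21 fell and 3 rose, and 11 of the falls were called, with a list median of -0.61 against 0.022 for all genes tested. The falls included Dusp6, Fosl1, Dusp5, the stress gene Ier3 (-1.31), Spry4, Spry2, Phlda1 (-1.19), Klf2 (-1.03), the transcription factors Egr3 (-1.02), Maff (-0.90), Myc (-0.79), Junb (-0.73) and Srf itself (-0.64). The first-wave genes Fos, Fosb, Egr1, Jun, Ier2, Dusp1 and Nr4a3 did not pass, with 0.36, -0.069, -0.048, -0.25, -0.20, -0.21 and -0.04. Atf3 (0.52), Jund (0.48) and Klf4 (0.34) rose. By level, 11 of the 36 lay between 100 and 1000 and 20 between 1000 and 10000. In these bands 10.7% and 35.2% of protein-coding genes were lower.

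Of 29 SRF and YAP targets 24 fell and none rose, and 2 were called, Ccn2 and Ccn1, with a list median of -0.39. Ccn1, the sister matrix protein of Ccn2, had 11002, 12115 and 19113 at 3 h and 5388, 5977 and 8555 at 24 h, a change of -1.07 (SE 0.119, edgeR adjusted p = 2.47e-05). Smaller falls were seen in the cytoskeletal genes Actg1 (-0.71), Tagln (-0.66), Vcl (-0.56), Acta2 (-0.56), Actb (-0.39) and Flna (-0.35) and in the fibronectin receptor subunit Itga5 (-0.64). Cnn1 (0.88, edgeR adjusted p = 0.0638) and Actg2 (-0.72, edgeR adjusted p = 0.296) did not pass. Of the 29 targets 13 had a mean over 10000 and 12 between 1000 and 10000, the bands in which 58.8% and 35.2% of protein-coding genes were lower.

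Of 24 NF-kappaB target cytokines and regulators 17 fell and 1 rose, with a median of -0.43. The monocyte chemokine Ccl2 had 10320.0, 10552 and 11394 at 3 h and 3651, 3459 and 4960.1 at 24 h, and its neighbour Ccl7 1126, 984 and 1154 and 369.6, 362 and 430.3. Ccl7 changed by -1.49 (SE 0.131, edgeR adjusted p = 2.99e-07), and Ccl2 by -1.42 (SE 0.141, edgeR adjusted p = 1.64e-05). Ptgs2 (cyclooxygenase-2, -1.47), whose 3 h replicate 3 of 2041 stood above the other 2, and the feedback inhibitor Tnfaip3 (-1.30) were also called. Il6 (-1.18) and Ccl20 (-1.38) fell at low counts, and the alarmin Il33 rose (1.01, edgeR adjusted p = 0.0362). By level, 8 of the 24 lay between 100 and 1000, 9 between 1000 and 10000 and 3 above. In these bands 10.7%, 35.2% and 58.8% of protein-coding genes were lower.

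Of 21 TGF-beta and BMP targets 11 fell and 3 rose, with a median of -0.29. Called falls included the inhibitors of differentiation Id1 and Id2 (-1.01 and -1.07) and Pmepa1, a feedback inhibitor of TGF-beta signalling (-1.04). Id1 went from 3222, 3878 and 4882 to 1455, 1806 and 2792. The inhibitory Smad7 (-0.78), Snai1 (-0.90) and Inhba (-0.94) fell too, while Tgfb3 (0.35), Smad6 (0.28) and Bmp4 (0.25) rose. By level, 3 of the 21 lay between 100 and 1000, 15 between 1000 and 10000 and 1 above. In these bands 10.7%, 35.2% and 58.8% of protein-coding genes were lower.

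Of 40 collagen, protease and matrix genes 16 fell and 6 rose, with a median of -0.18. Without a TMM factor 12 fell and 10 rose. Of the 40, 10 lay between 1000 and 10000 and 17 above, bands in which 35.2% and 58.8% of protein-coding genes were lower. Basement membrane collagens Col4a1 and Col4a2 (-0.64 and -0.56), Col8a1 (-0.91), Timp1 (-0.74), fibronectin (-0.32) and the crosslinking enzyme Lox (-0.43) fell. The 3 collagen VI chains Col6a1, Col6a2 and Col6a3 (0.36, 0.42 and 0.76) and the small proteoglycans Dcn (0.63) and Lum (1.66) rose. The main fibrillar chains Col1a1 (-0.13) and Col1a2 (0.091) did not pass.

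Genes of growth moved by small steps. Of 43 ribosome biogenesis and RNA polymerase I genes 41 fell and none rose, with a median of -0.29 and a range from -0.58 to -0.052; 34 of the 43 lay in the band where 35.2% of protein-coding genes were lower and 7 in the band where 58.8% were. The largest was Rrp9, a protein of the U3 snoRNP, with 2183, 2202 and 2254 at 3 h and 1455, 1352 and 1632 at 24 h, a change of -0.58 (SE 0.0553, edgeR adjusted p = 3.79e-08). Grwd1 (-0.54) and the helicase Ddx21 (-0.52) came next, and the polymerase I subunit Polr1b had -0.42. Without a TMM factor 27 of the 43 fell and none rose, and with all 36 libraries in the fit 10 fell and none rose.

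Of 44 DNA replication genes 21 fell and 2 rose (Pold1 and Pola2), with a median of -0.13, which became -0.0025 without a TMM factor, where 8 fell and 8 rose. Of the 44, 35 lay between 1000 and 10000 and 6 above, bands in which 35.2% and 58.8% of protein-coding genes were lower. Rrm2, the S phase subunit of ribonucleotide reductase, had the largest change, from 8852, 8529 and 10142 to 5362, 5246 and 6876 (log2 fold change -0.66, SE 0.0459, edgeR adjusted p = 2.37e-10), and cyclin E1 (Ccne1, -0.65) came next. Of 43 genes of mitosis and G2 8 rose and 3 fell, with a median of 0.039, and without a TMM factor 25 rose and 2 fell. By level, 38 of the 43 lay between 1000 and 10000 and 5 above. In these bands 35.2% and 58.8% of protein-coding genes were lower, and 11.3% and 2.79% were higher. Cenpf rose by 0.38 and Cdk1 fell by 0.34 on the log2 scale, while Top2a (0.044) and Ccnb1 (-0.091) did not pass. None of 69 replication-dependent histone genes passed by edgeR (4 had an unadjusted p under 0.05) and 1 was lower by DESeq2, and their median of -0.032 became 0.095 without a TMM factor, where 3 rose. With no filter on low counts 9 fell and 4 rose.

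Among genes of nutrient supply and FOXO factors rises outnumbered falls. Of 16 glucose sensing and FOXO target genes 10 rose and 1 fell (Irs2, -0.27), with a median of 0.31; 10 of the 16 lay in the band from 100 to 1000, where 25.1% of protein-coding genes were higher. Ccng2 had 160.0, 208 and 136 at 3 h and 399, 554 and 294 at 24 h, a change of 1.29 (SE 0.108, edgeR adjusted p = 5.92e-09). Pik3ip1, an inhibitor of PI3-kinase, had 132, 152 and 119.7 and 334, 410.3 and 239.9, with 1.27 (SE 0.14, edgeR adjusted p = 3.73e-07). Klhl24 (0.98), Tsc22d3 (0.83) and Sesn3 (0.51) rose without reaching 2-fold, and Klf15 (1.801) rose at means of only 2.93 and 10.8. Txnip, which responds to glucose, did not pass (0.24).

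Of 37 genes of amino acid supply and the integrated stress response 18 rose and 2 fell, with a median of 0.19; 19 of the 37 lay between 1000 and 10000 and 11 above, bands in which 11.3% and 2.79% of protein-coding genes were higher. Trib3, a pseudokinase induced by ATF4, was called, with 2362, 2346 and 1406 at 3 h and 5239, 5279.9 and 3817 at 24 h and a change of 1.25 (SE 0.128, edgeR adjusted p = 1.52e-05). The stress factors Ddit3 (0.70) and Nupr1 (0.82), Ddit4 (0.67), Sesn2 (0.67), Chac1 (0.65), Vldlr (0.73) and Atf4 itself (0.22) rose. The amino acid synthesis and charging genes Asns (0.11), Psat1 (-0.031), Phgdh (-0.11) and Gars (-0.0056) did not pass, and the transporters Slc7a5 (-0.22) and Slc7a1 (-0.20) fell.

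Of 21 growth arrest and contact inhibition genes 5 rose and 8 fell, and the median of -0.069 became 0.058 without a TMM factor. Gas1, a membrane protein first found in growth-arrested fibroblasts, was called, with 1313, 1244 and 982 at 3 h and 2371, 2633 and 2226 at 24 h and a change of 1.04 (SE 0.0678, edgeR adjusted p = 9.7e-11); Gm48488, also called higher (1.09), overlaps it. Of 26 cholesterol synthesis and uptake genes 13 fell and none rose, with a median of -0.23 (3 fell and 1 rose without a TMM factor), led by Hsd17b7 (-0.65) and the LDL receptor (-0.43). Their course was not one-way, since the list median was -0.22 from 3 h to 6 h, -0.44 from 6 h to 12 h and 0.41 from 12 h to 24 h. Of 15 fatty acid synthesis genes 6 fell and 1 rose, with Fasn at -0.51 (SE 0.0836, edgeR adjusted p = 0.000164) and a median of -0.12 that became 0.010 without a TMM factor, where 3 fell and 3 rose. Between 1000 and 10000 lay 8 of the 15, 19 of the 26 cholesterol genes and 12 of the 21 growth arrest genes. Above 10000 lay 5, 3 and 3. In these bands 35.2% and 58.8% of protein-coding genes were lower.

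With all 36 libraries in the fit fewer genes passed, 399 of 28542 lower (1.4%) and 255 higher (0.893%) by the edgeR adjusted p alone, and the list counts were smaller too. The falls were then 11 of the immediate early and delayed early genes, 10 of the NF-kappaB targets, 8 of the matrix genes, 6 of the SRF and YAP targets, 4 of the TGF-beta and BMP targets, 2 of the DNA replication genes and 1 each of the cholesterol and fatty acid genes. The rises were 6 of the amino acid and stress response genes, 2 of the FOXO targets and 1 of the genes of mitosis. None of the growth arrest genes passed there by edgeR (6 had an unadjusted p under 0.05), against 14 by DESeq2 with the 18 Control-line libraries.

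**Figure D3:**
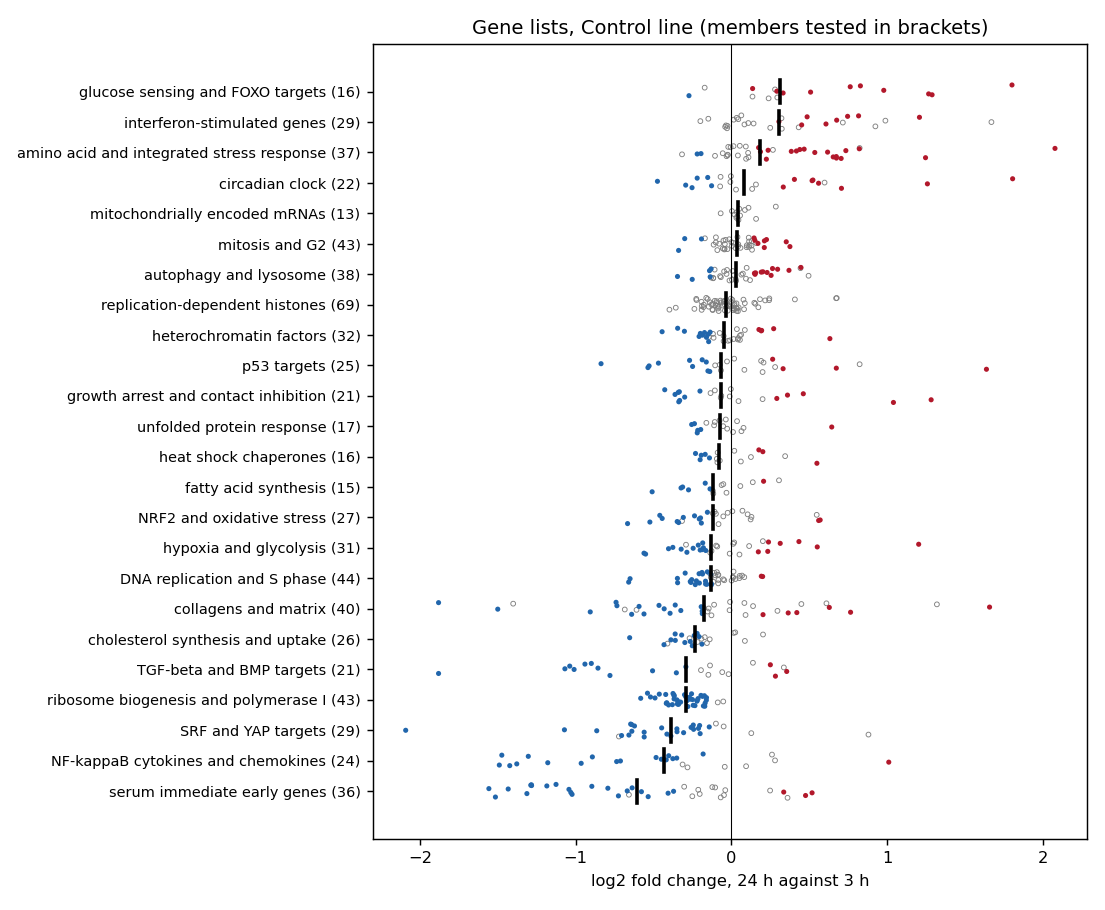
Log2 fold change between 24 h and 3 h in the Control line (horizontal axis) of each tested member of the lists (rows, with the number tested in brackets), as blue points for adjusted p under 0.05 and lower, red for higher and open circles for no pass, with a black bar at the list's median. Serum immediate early and delayed early genes sit farthest left with a median of -0.61, and glucose sensing and FOXO targets farthest right with 0.31. Lists of cell type markers are not drawn.

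The circadian clock turns about once a day, and fresh serum is known to reset it in cultured fibroblasts. Of 22 clock genes 8 rose and 6 fell, none was called, and the median was 0.081; without a TMM factor 10 rose and 1 fell. With all 36 libraries none passed by edgeR (6 had an unadjusted p under 0.05), and by DESeq2 with the 18 Control-line libraries 8 rose and 6 fell. By level, 12 of the 22 lay between 100 and 1000 and 7 between 1000 and 10000. In these bands 25.1% and 11.3% of protein-coding genes were higher, and 10.7% and 35.2% were lower. The PAR-bZIP output gene Dbp had 58.6, 33.2 and 41.2 at 3 h and 102, 126 and 101 at 24 h (log2 fold change 1.26, SE 0.185, edgeR adjusted p = 1.64e-05), at a mean under 100.

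Per3 (0.71), Tef (0.56), Ciart (0.52), Bhlhe41 (0.52), Rora (0.40) and Cry2 (0.33) rose, and Bhlhe40 (-0.47), Nr1d1 (-0.29), Cry1 (-0.25), Csnk1d (-0.22), Csnk1e (-0.15) and Clock (-0.13) fell. Hlf (0.60), Nr1d2 (0.16), Per2 (0.13), Per1 (0.029), Arntl (-0.072), Nfil3 (-0.0068) and Timeless (-0.0036) did not pass, and Arntl, Nfil3 and Timeless changed sign without a TMM factor, still without passing. Per2 averaged 748 in uninduced cells and 544 in induced cells, then 392, 284, 423 and 429.6 at 3, 6, 12 and 24 h, and Nr1d2 2527 in uninduced cells and 1654 in induced cells, then 1614, 1447, 2546 and 1802 at 3, 6, 12 and 24 h, with the 6 h mean below both ends in each. With 4 times after the medium change no period can be read.

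Factors of heterochromatin, the structure the study is about, moved little. Of 32 such genes 11 fell and 5 rose, and the median of -0.05 became 0.077 without a TMM factor, where 2 fell and 10 rose. Of the 32, 21 lay between 1000 and 10000 and 7 above, bands in which 35.2% and 58.8% of protein-coding genes were lower. With all 36 libraries none passed by edgeR (5 had an unadjusted p under 0.05), and by DESeq2 with the 18 Control-line libraries 13 fell and 4 rose. Kmt5c (SUV420H2, which trimethylates H4K20) rose, from 580.5, 683 and 657 to 989, 1085 and 902 (log2 fold change 0.63, SE 0.0723, edgeR adjusted p = 5.99e-07). Lmna (-0.45), Lbr (-0.30), Dnmt1 (-0.21), Uhrf1 (-0.19), Cbx5 (HP1alpha, -0.16) and Suv39h1 (-0.15) fell, while Suv39h2 (-0.05), Setdb1 (-0.022), Cbx1 (0.042) and Atrx (0.062) did not pass. Hprt, often used as a reference gene, fell with 4105, 4058 and 4187 at 3 h and 3368, 3215 and 3302 at 24 h (log2 fold change -0.32, SE 0.0412, edgeR adjusted p = 3.04e-06).

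The same step in the MSR-dCas9-Activator line shares no library with the Control line, and the difference between the 2 changes was tested over all 36 libraries. It was called for 1786 genes in the higher and 525 in the lower direction, of 28542 tested (6.26% and 1.84%). Of the 58 genes that fell in the Control line 57 had a different change in the Activator line by the adjusted p alone, where the median change was 1.72 and 3 genes had the same sign. Genes called in the Control line were chosen by a change that also enters the difference. Counts of such genes with a difference are therefore no independent support. Dusp6 changed by -1.56 in the Control line and by 2.49 in the Activator line, and Ccn2 by -2.09 and 2.29. For both genes the lines already stood apart at 3 h. On the scale of all 36 libraries Dusp6 averaged 7940 and 2700 in the Control line at 3 h and 24 h. In the Activator line it averaged 510 and 2773. Ccn2 averaged 7403 and 1745 against 804 and 3953. Of the 50 genes that rose in the Control line 11 had a different change, the Activator median was 1.14 and 43 genes had the same sign. Dhrs3 changed by 1.67 and 1.82, and Trp53inp1 by 1.64 and 1.93, whereas Notch3 changed by 1.84 and -0.84 (edgeR adjusted p of the difference = 0.000221). The SE of the difference was 0.899 for Dhrs3, 0.658 for Trp53inp1 and 1.21 for Abca1. For such genes a difference that did not pass does not show equal change. Signs in the Activator line were not set against those of all genes. In the Activator line replicate 2 stood apart for Dhrs3, with 214, 2334 and 288 at 24 h. Without replicate 2 at all times 54 of the 58 and 10 of the 50 differed between the lines, and without replicate 3 54 and 4. Without the replicate block 56 and 5 differed. Among all genes tested for the difference 18.1% were higher and 13.1% lower by the adjusted p alone. The lines also differ in the length of induction, 6 h against 24 h.

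Among the genes called, the 3 with the largest difference upward were Grhl2 (an epithelial transcription factor), Fosl1 and Has2. Fosl1 averaged 3267 and 1147 in the Control line at 3 h and 24 h and 417 and 4956 in the Activator line, and Has2 1370.0 and 422 against 38.4 and 367, on the scale of all 36 libraries. Grhl2 averaged 5.47 and 3.54 against 24.9 and 593. Those with the largest difference downward were Cyp2c65 (0.297 and 4.37 against 511 and 113), Dock2 (0 and 1.92 against 363 and 201) and Pnma2 (0.297 and 4.11 against 305 and 147), all near 0 in the Control line, and none of them was in enough Control libraries to be tested there.

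**Figure D4:**
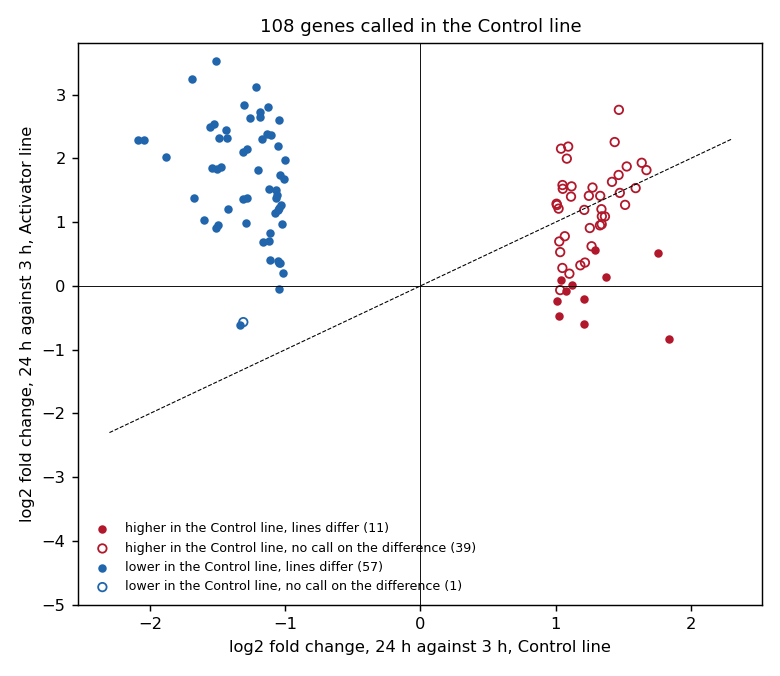
The 108 genes called in the Control line by their log2 fold change between 24 h and 3 h in the Control line (horizontal axis) and in the Activator line (vertical axis), in red where higher and blue where lower in the Control line, filled where the difference between the lines had an adjusted p under 0.05 (11 and 57 genes); the dashed line marks equal change. The blue points lie almost all above 0, far from the dashed line, and most red points lie around it.

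Repeat families were measured in the same libraries. GSAT_MM, the major satellite that the guide addresses, had 1086, 920.0 and 985 normalised counts at 3 h and 1923, 1855 and 1499.5 at 24 h, so that every 24 h library lay above every 3 h library. The log2 fold change was 0.81 (SE 0.095, edgeR adjusted p = 2.2e-14), and it stayed between 0.72 and 0.94 in the alternatives, with an edgeR adjusted p of 0.468 where all 36 libraries entered the fit and of at most 2.04e-06 in the others. Against uninduced cells, with 1420.3 ± 62.6 (SD, n = 3), the change was -0.51 at 3 h (edgeR adjusted p = 6.03e-05) and 0.30 at 24 h (edgeR adjusted p = 0.0377). SYNREP_MM, a second satellite family, had 90.9, 91.9 and 74.5 and 76.3, 72.7 and 67.8 and did not pass (log2 fold change -0.24, SE 0.254, edgeR adjusted p = 0.46).

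Across repeats a family was called at an adjusted p under 0.05 and a log2 change beyond 0.5. By this rule 22 of 1455 families were higher (1.51%) and 1 was lower (0.0687%), and by the adjusted p alone 208 were higher (14.3%) and 3 lower (0.206%). The shift was shared, since 1306 of the 1455 had a positive change, with a median of 0.18 on the log2 scale, and 567 had no overlap between 3 h and 24 h with 24 h higher (39.0%). LTR elements, relics of endogenous retroviruses, made up 166 of the 208 and 12 of the 22, of 650 tested. ETnERV3-int had 838, 928 and 788 at 3 h and 1217, 1320.0 and 1186 at 24 h (log2 fold change 0.55, SE 0.0952, edgeR adjusted p = 4.86e-06), and RLTR13A1 216, 204 and 211 and 312, 317 and 309 (log2 fold change 0.57, SE 0.128, edgeR adjusted p = 0.00192).

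The count of called families moved with the scaling, the model and single libraries. It was 109 without a TMM factor, 13 with DESeq2 size factors, 4 by DESeq2, 8 with the 6 libraries alone and 0 by edgeR with all 36 libraries, where 157 had an unadjusted p under 0.05 and were higher. It was 4 without the replicate block, 49 without the 24 h library of replicate 2, 5 without the 3 h library of replicate 3 or the 24 h library of replicate 1, and 6 and 7 without the 3 h library of replicate 1 or the 24 h library of replicate 3. With a replicate number left out at all times it was 4, 60 and 1 for numbers 1, 2 and 3. The young LINE-1 family L1Md_A had 31023, 37875 and 33974 at 3 h and 41579, 40425 and 44884 at 24 h (log2 fold change 0.30, SE 0.0857, edgeR adjusted p = 0.0147), and over the alternatives its adjusted p ranged from 0.00046 to 0.639, with 0.11 without the replicate block by edgeR. The only called fall was MER63C, an old DNA transposon family, with 1857, 2238 and 2159 and 1304, 1146 and 1519 (log2 fold change -0.65, SE 0.0942, edgeR adjusted p = 4.37e-09), and an edgeR adjusted p of 0.102 without the block and of at most 0.0225 in the other alternatives. MER63C averaged 1339 in uninduced cells and 1328 in induced cells, then 2085, 1677, 1556 and 1323 at 3, 6, 12 and 24 h, with the 3 h group above the others, and it changed by 0.47 in the Activator line.

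Repeats took 19.2%, 21.3% and 19% of all counts at 3 h and 23.3%, 22.8% and 23.2% at 24 h, or 19.9% ± 1.25 and 23.1% ± 0.288 (SD, n = 3). The exact permutation test gave p = 0.1, two-sided, the smallest that 3 against 3 allows. The classes moved together, with every 24 h library above every 3 h library in each, the share at 24 h over that at 3 h being 1.19 for LTR, 1.19 for LINE, 1.18 for SINE, 1.16 for simple repeats, 1.14 for DNA transposons and 1.2 for satellites. Several noncoding gene types moved the same way: the median change was 0.20 for 201 sense-intronic genes, 0.21 for 1411 genes of the class TEC (to be tested experimentally) and 0.14 for 832 lincRNA genes. The median level of these types was low (53.6, 66.1 and 35.8 normalised counts), and protein-coding genes with a mean from 10 to 100 had a median change of 0.30. Their part in the repeat result was not tested. Mitochondrially encoded mRNAs took 1.37% ± 0.102 and 1.48% ± 0.286 of counts (SD, n = 3), with an exact permutation p of 0.6, and none of 13 passed by edgeR (1 had an unadjusted p under 0.05) or DESeq2, while without a TMM factor 3 rose.

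**Figure D5:**
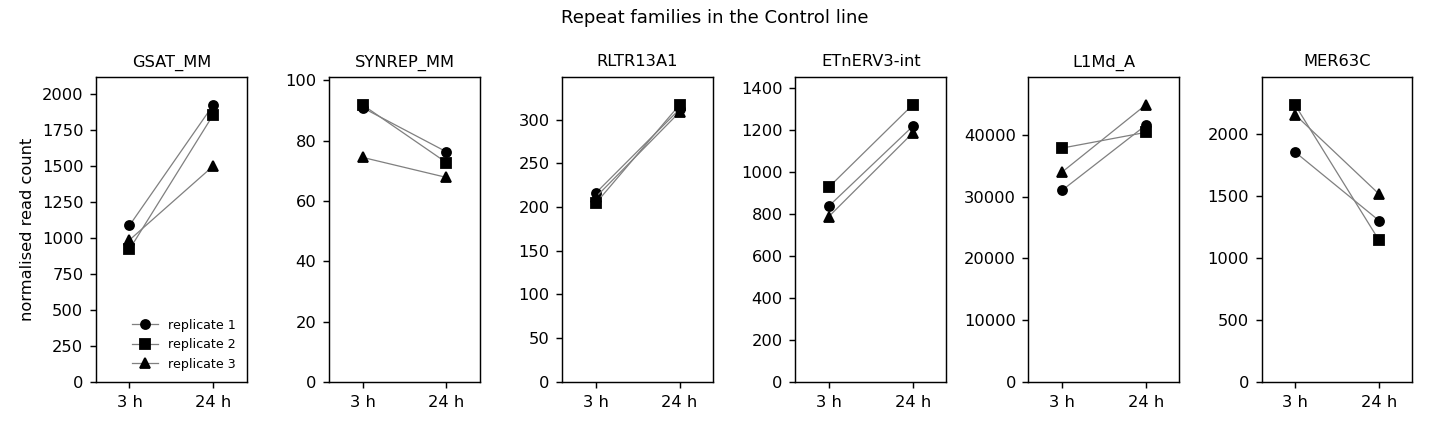
Normalised read counts (vertical axes, from 0) of 6 repeat families at 3 h and 24 h in the Control line, 1 symbol and line for each replicate number. GSAT_MM, RLTR13A1, ETnERV3-int and L1Md_A are higher at 24 h in all 3 pairs, SYNREP_MM and MER63C lower in all 3, and the times overlap only for SYNREP_MM.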

How the data were processed

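RNA was measured by stranded, ribosome-depleted total RNA sequencing. The authors trimmed reads with cutadapt, aligned them with STAR to GRCm38 (Ensembl) under the settings that TEtranscripts recommends, and obtained counts of genes and of repeats with TEtranscripts; the annotation release and the mode and strand setting of TEtranscripts are not given in the sources used here. The deposited values are raw counts, 1 column per library, for 54842 genes and 1561 repeat families; 1 unnamed entry (at most 0.00452% of counts) was left out. Replicates are described as biological, and p-values measure the spread between these samples.

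Counts were tested with edgeR 4.0.16 (quasi-likelihood, R 4.3.3) over the 18 Control-line libraries, with TMM factors and library sizes from genes, the edgeR filter on low counts by group and the replicate number as a block, as in the study. Deviations from the group mean correlated between 3 h and 24 h by 0.343, 0.11 and 0.43 for numbers 1, 2 and 3. Between different numbers the values ran from -0.362 to 0.078, and taking deviations within groups of 3 lowers them. The 3 h and 24 h libraries of number 1 thus deviated together, as did those of number 3, while for number 2 pairing is not clear. P-values were adjusted by Benjamini-Hochberg over all genes or all repeat families. Normalised read counts are counts divided by the TMM-scaled library size, times 40118265, the scale shared by the 18 libraries. SE was taken as the size of the log2 fold change over the square root of F. The difference between lines was an interaction over all 36 libraries. Shares were compared by exact permutation. Levels of different genes were not compared, since counts are not per length.

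Members and lists were chosen with earlier results of these data known. The text names the 8 largest rises and falls among called genes that moved alike in each pair, up to 4 called members of each list (or its member of largest change), all clock genes, GSAT_MM, SYNREP_MM, L1Md_A, Hprt, the 3 largest called repeat families each way with a mean of at least 100, and the 3 largest differences between lines each way. Some results under this rule are not reported here. Other names were chosen after their values were seen. The code was tested on simulated data. Alternatives were other scalings (DESeq2 1.42.0 size factors, no TMM, repeats in the library size), DESeq2, other filters and limits, other sets of libraries, no block and libraries left out in turn; leaving out a replicate number in the Control line was added after seeing the data.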

Additional observations from a re-analysis of the deposited data

Results flagged for a closer look

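In each of the following the change from 3 h to 24 h differed between the Activator and the Control line by the edgeR interaction over 36 libraries (adjusted p under 0.05). The values are the Activator log2 fold change minus that of the Control line, and the lines share no library, although they differ in the length of induction. Across all genes 2311 were called by the interaction. Genes called in the Control line were chosen by a change that enters this difference. No cause was tested.

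Every gene called lower at 24 h in the Control line and named here had a positive difference: Ccn2 (4.38), Gm15270 (4.32), Has2 (4.94), Tmem171 (3.02), Tnfsf18 (2.65), Dusp6 (4.05), Errfi1 (3.39), Fosl1 (5.05), Dusp5 (3.75), Ier3 (3.42), Thbs1 (2.46), Ccl2 (2.63), Ccl7 (3.8), Ptgs2 (3.36), Tnfaip3 (4.14), Ccn1 (2.23), Id1 (2.68), Id2 (2.57) and Pmepa1 (1.4), as did Hmox1 (3.06), which passed the adjusted p but not the fold limit. Of the rises, Notch3 (-2.66), Zfr2 (-1.23) and Ccng2 (-0.724) differed downward, as did Cenpf (-0.546). Hprt, lower at 24 h in the Control line, fell further in the Activator line (-0.542). Hspa1b, a chaperone, rose in both, and more in the Activator line (2.94).

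Most clock genes differed upward: Bhlhe40 (2.51), Bhlhe41 (3.36), Ciart (1.81), Clock (0.933), Cry1 (0.742), Cry2 (2.1), Csnk1d (0.342), Csnk1e (1.02), Nfil3 (3.07), Nr1d1 (3.26), Nr1d2 (1.78), Per1 (2.67), Per2 (3.21), Rora (1.21) and Tef (1.71), whereas Timeless differed downward (-0.947). Grhl2 (5.06) differed upward and Cyp2c65 (-5.62), Dock2 (-5.03) and Pnma2 (-4.43) downward, all 4 near 0 in the Control line. Among repeats MER63C differed by 1.12.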

How the results depend on the processing

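Of 108 called genes 106 were called by DESeq2, 102 with the 6 libraries alone, 99 without the replicate block (44 higher and 55 lower), 83 without TMM (of 110 called there, 77 higher and 33 lower) and 74 with all 36 libraries (23 of them higher). With the mean limit at 10, 260 were higher and 91 lower; with no filter on low counts, 363 and 122; with no fold limit, 2028 and 3224. Leaving out 1 library gave 34 to 56 higher and 56 to 68 lower, and leaving out a replicate number 41 to 53 and 50 to 65.

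Repeat families called higher numbered 13 with DESeq2 size factors, 109 without TMM (3 lower), 4 with DESeq2, 8 with the 6 libraries alone, 0 by edgeR with all 36 (157 at an unadjusted p under 0.05), 4 without the replicate block (0 lower, 7 at an unadjusted p under 0.05), 208 with no fold limit (3 lower), 5 to 49 without 1 library and 1 to 60 without a replicate number; 3 were lower when adjusted with genes. The difference between lines was called for 1369 to 2683 genes without a replicate number, the lowest without number 3. Counts of rises that differ between lines were 4 to 13.

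The change in mitochondrial mRNA share ranged from -0.00097 to 0.27 percentage points without 1 library, negative without the 24 h library of replicate 2. Clock genes near 0 changed sign without passing: without TMM Arntl 0.054, Nfil3 0.12 and Timeless 0.12, and without 1 library or replicate number Arntl from -0.16 to 0.0093, Nfil3 from -0.11 to 0.049, Per1 from -0.0038 to 0.051 and Timeless from -0.031 to 0.023. Over the named genes and families 1180 values kept direction and side of the adjusted p limit of 0.05. Of the rest 92 no longer passed that limit, 11 newly passed it and 12 changed sign. The causes were not tested. Depth limits genes with means under 100, where 1 library can decide a value.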

Other observations

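Gene groups not described above also held genes that differed between 3 h and 24 h in the Control line, mostly by small steps. Their counts are to be read against the shares by level. Between 1000 and 10000 lay 15 of the 31 hypoxia and glycolysis genes and 17 of the 27 NRF2 genes. Above 10000 lay 9 and 5. In these bands 35.2% and 58.8% of protein-coding genes were lower, and 11.3% and 2.79% were higher. Of 31 hypoxia and glycolysis genes 13 were lower and 7 higher by the edgeR adjusted p, with a median log2 fold change of -0.13 (7 lower and 10 higher without TMM). Among those lower were Hk2 (-0.56), Slc2a1 (-0.55), Pgam1 (-0.40) and Ldha (-0.38), and among those higher the lactate exporter Slc16a3 (0.55) and the carbonic anhydrase Car9. Car9, a hypoxia target, had 32.3, 38.3 and 35.2 normalised counts at 3 h and 73.8, 93.3 and 77.4 at 24 h (log2 fold change 1.20, SE 0.2, edgeR adjusted p = 7.47e-05). Of 27 NRF2 and oxidative stress genes 12 were lower and 2 higher, led by the heme oxygenase Hmox1 (log2 fold change -0.67, SE 0.0797, edgeR adjusted p = 5.18e-06), and the median of -0.12 became 0.0069 without TMM, where 7 were lower and 6 higher.

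Of 25 p53 targets 10 were lower and 4 higher, with Plk2 (-0.84) and Trp53inp1 (1.64) at the ends and a median of -0.067 that became 0.059 without TMM (5 lower and 5 higher). Of 29 interferon-stimulated genes 8 were higher and none lower, with a median of 0.30. Gbp7 (1.21), Tap1 (0.82) and Parp14 (0.75) were among them, the RNA sensor Ifih1 had 3.5, 2.55 and 5.03 at 3 h and 12.7, 12.3 and 11.3 at 24 h (log2 fold change 1.67, SE 0.978, edgeR adjusted p = 0.23), and 15 of the 29 had a mean under 100. Protein-coding genes from 10 to 100 were higher in 17.1%, with a median of 0.30. Another 8 of the 29 lay between 100 and 1000 and 6 between 1000 and 10000, where 25.1% and 11.3% were higher. Of 38 autophagy and lysosome genes 11 were higher and 5 lower, with Rragd at 0.45, Mcoln1 at 0.37 and Tfeb at -0.35, a median of 0.029 and Mitf at log2 fold change 0.50, SE 0.322, edgeR adjusted p = 0.274; without TMM 20 were higher and 1 lower. Of 17 genes of the unfolded protein response 5 were lower and 1 higher, Herpud1 (log2 fold change 0.64, SE 0.0697, edgeR adjusted p = 3.65e-07), and of 16 heat shock chaperones 5 were lower and 3 higher, with Hspa1b at log2 fold change 0.55, SE 0.191, edgeR adjusted p = 0.034. Their medians of -0.076 and -0.082 became 0.050 and 0.045 without TMM, where 1 and 0 were lower and 4 and 5 higher. Between 1000 and 10000 lay 11 of the 17 unfolded protein genes, 9 of the 16 chaperones, 25 of the 38 autophagy genes and 11 of the 25 p53 targets. Above 10000 lay 3, 4, 6 and 1. In these bands 35.2% and 58.8% of protein-coding genes were lower, and 11.3% and 2.79% were higher. Among 69 histone genes that did not pass, the largest change was that of Hist3h2bb-ps (log2 fold change 0.68, SE 0.378, edgeR adjusted p = 0.195), and among the mitochondrially encoded mRNAs that of mt-Nd6 (log2 fold change 0.28, SE 0.11, edgeR adjusted p = 0.0716). With all 36 libraries in the fit these counts were smaller: 1 hypoxia and glycolysis gene was lower and 1 higher, 2 NRF2 genes and 3 p53 targets were lower, and no interferon-stimulated, autophagy, unfolded protein or heat shock gene passed by edgeR (2, 5, 5 and 2 had an unadjusted p under 0.05, against 8, 15, 7 and 6 past the adjusted p by DESeq2 with the 18 Control-line libraries).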
